A study of Mus musculus with 6 samples.

Results

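The prostaglandin genes examined here are 10 of the 22063 genes in the RNA-seq table, taken by symbol. They code for the cyclooxygenases (*Ptgs1*, *Ptgs2*), the PGE2 synthases (*Ptges*, *Ptges2*, *Ptges3*), prostacyclin synthase (*Ptgis*), receptors for PGE2 (*Ptger1*, *Ptger2*, *Ptger4*) and the enzyme that inactivates prostaglandins (*Hpgd*). RNA came from primary cardiac fibroblasts of mice with floxed *Tet3* alleles. The GFP group (genotype label Control, n = 3) received an adenovirus that carries GFP, and the CRE group (genotype label Tet3 knockout, n = 3) one that carries Cre recombinase, which excises DNA between loxP sites. Both groups received a virus and both were treated with TGF-β, the cytokine that turns fibroblasts into myofibroblasts, so the values describe treated cells only. Per the study's methods the mice had a C57BL/6 J background, and its replicates are called biological. The sources used here do not give the age or number of mice, nor say whether the replicates came from separate mice or isolations, so p-values measure the spread between these libraries.

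Prostaglandins are made from arachidonic acid, which phospholipases release from membranes. The cyclooxygenases, one largely constitutive (*Ptgs1*) and one inducible (*Ptgs2*), convert it to PGH2, and terminal synthases turn this shared intermediate into PGE2, prostacyclin and other prostanoids. Each acts on G protein-coupled receptors nearby and is then inactivated. In fibroblasts, PGE2 acting through receptors coupled to cyclic AMP is known for restraining proliferation and matrix production.

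Total counts lay between 17002126 and 20343590 per library, and 12862 genes had enough counts to be tested by edgeR's quasi-likelihood test, 51.2% of which differed between CRE and GFP at an adjusted p under 0.05 (25.5% higher, 25.7% lower). *Tet3* had raw counts of 1044, 965 and 1000 under GFP and of 642, 649 and 637 under CRE, a log2 fold change of -0.72 (SE 0.08, edgeR adjusted p of 5.36e-05), so its RNA was reduced rather than absent. This check concerns the whole gene and not the floxed exons. All 10 fibroblast markers examined were detected and 9 fell. Their summed level lay between 41100 and 42400 CPM (counts scaled to normalized library size) in GFP and between 22500 and 24600 CPM in CRE libraries. Most of this sum came from the collagen genes *Col1a1*, *Col1a2* and *Col3a1* (GFP means of 13730, 11570 and 9804 CPM). Single markers stood between 29.0% of their GFP mean (*Postn*) and 93.5% (*Thy1*, which did not pass, edgeR adjusted p of 0.281). Endothelial markers were also present, and 10 of 12 fell, while *Eng*, which is abundant in fibroblasts too, rose (log2 fold change of 0.31, edgeR adjusted p of 0.00029). Their summed level lay between 1050 and 1110 CPM in GFP and between 978 and 1030 CPM in CRE libraries, or, leaving out *Eng*, between 423 and 468 CPM and between 201 and 235 CPM. Of 8 macrophage markers 5 were tested and 3 fell (summed level between 58.3 and 66.0 CPM in GFP and between 34.4 and 37.8 CPM in CRE libraries). Of 6 mast cell markers only *Kit* was tested and fell, with *Cma1* at 0 counts in every library, and of 5 tested epicardial and mesothelial markers 3 rose and 1 fell (summed level between 7.95 and 9.13 CPM in GFP and between 8.34 and 11.9 CPM in CRE libraries). Summed cardiomyocyte markers lay between 0.789 and 1.09 CPM in GFP and between 1.48 and 2.63 CPM in CRE libraries, with *Myh6* at 0 counts throughout, and the 1 tested, *Nppb*, rose (log2 fold change of 3.23, edgeR adjusted p of 0.000565). In bulk RNA, fewer cells of a type and less RNA per cell cannot be told apart.

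Of the 10 prostaglandin genes, 9 had enough counts to be tested and 5 passed the threshold. *Ptges* and *Ptgs2* rose in CRE libraries, and *Ptgis*, *Ptger4* and *Ptges3* fell. *Ptgs1*, *Ptges2*, *Ptger1* and *Hpgd* did not pass, and *Ptger2* was too low to test. This share of 55.6% lies near the 51.2% of all tested genes, so the set as a whole did not stand out by how many of its members differed. The CPM ranges of the groups did not overlap for 5 of the 9, against 59.6% of all tested genes. Its median log2 fold change was -0.17, against 0.01 over all tested genes. With libraries scaled by size alone, which moved that median over all genes to 0.17, 2 members rose and 1 fell, since *Ptges3* and *Ptger4* no longer passed. Of all 12862 tested genes, 5529 rose and 2083 fell under this scaling. The 2 largest changes, in *Ptges* and *Ptgis*, passed in each of the 16 other fits tried.

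The promoter sequences of members that passed are shown first, because promoters are where transcription of a gene is controlled. They are RefSeq sequences (GRCm38.p6), found for 8 of the 10 members, and *Ptgis* was not among these. Each line gives the 250 bases before the transcription start used in RefSeq, 5′ to 3′ on the strand of the gene. Distances given below are counted from that start. For *Ptges* the start used is that of its protein-coding transcript in GENCODE, while the gene span given below reaches further upstream through a non-coding transcript. For *Ptges3* the RefSeq start lies downstream of the first start in GENCODE (128058954). The last bases of its line therefore fall inside the gene span given below. Capitals mark the GC box (GGGCGG, a sequence bound by SP1 and EGR family factors) and a short C/EBP motif (TTNNGNAA), either strand. *Ptges* is read from the minus strand at chr2:30903298-30903547, *Ptgs2* from the plus strand at chr1:150099781-150100030, *Ptger4* from the minus strand at chr15:5244188-5244437, and *Ptges3* from the plus strand at chr10:128058732-128058981.
Ptges: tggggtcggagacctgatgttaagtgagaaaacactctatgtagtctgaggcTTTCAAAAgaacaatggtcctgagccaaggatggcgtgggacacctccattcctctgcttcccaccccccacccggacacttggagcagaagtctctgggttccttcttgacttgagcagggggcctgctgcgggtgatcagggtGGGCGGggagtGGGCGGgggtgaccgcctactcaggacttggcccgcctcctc
Ptgs2: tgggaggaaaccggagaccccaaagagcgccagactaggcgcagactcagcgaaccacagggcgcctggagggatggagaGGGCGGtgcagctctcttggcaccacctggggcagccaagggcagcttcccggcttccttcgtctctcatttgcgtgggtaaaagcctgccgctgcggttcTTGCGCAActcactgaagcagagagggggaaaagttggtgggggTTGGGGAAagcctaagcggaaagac
Ptger4: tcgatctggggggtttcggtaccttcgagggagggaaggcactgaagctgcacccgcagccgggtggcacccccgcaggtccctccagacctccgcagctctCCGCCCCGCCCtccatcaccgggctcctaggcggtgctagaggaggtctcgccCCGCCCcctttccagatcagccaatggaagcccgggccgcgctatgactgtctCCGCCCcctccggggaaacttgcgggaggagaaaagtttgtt
Ptges3: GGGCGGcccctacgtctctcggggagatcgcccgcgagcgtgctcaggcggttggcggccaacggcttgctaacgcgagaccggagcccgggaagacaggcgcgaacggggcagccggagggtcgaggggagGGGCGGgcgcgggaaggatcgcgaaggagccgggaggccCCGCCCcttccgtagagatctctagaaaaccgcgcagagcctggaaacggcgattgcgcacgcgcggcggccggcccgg

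The *Ptges* sequence held 2 GC boxes close together, beginning 53 and 42 bases before the start, and a C/EBP match 198 bases before it. The *Ptgs2* sequence held 1 GC box, 170 bases before the start, and 2 C/EBP matches, 69 and 25 bases before it. *Ptger4*, which fell, held 4 GC boxes, written here from the opposite strand. *Ptges3*, which also fell, held 3 in the bases shown, 250, 118 and 79 bases before the start, and 1 after the start. The motif was thus shared by members that moved in opposite directions. GC boxes occurred in 35.7% and the C/EBP motif in 40.7% of 32851 promoter windows of 300 bases (250 before and 50 after the start), so both are common. In the same windows of these 4 genes, the TATA box TATAAA, the EGR motif GCGNGGGCG, an NF-kB motif and the AP-1 motif TGANTCA had no match, and the core of the cyclic AMP response element, TGACG, matched in *Ptgs2* and *Ptges3*, once each and after the start. Among all windows these were found in 13.6%, 5.55%, 1.63%, 7.81% and 20.8%. The GC box was added to the motifs after the sequences had been seen, and a match is a description of letters only.

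The members spanned a wide range of abundance. On the FPKM scale, which allows for transcript length, *Ptgis* was the highest member in GFP libraries (112.6 ± 6.3 FPKM, SD, n = 3), followed by *Ptges3* (69.3 ± 1.17) and *Ptgs2* (64.1 ± 18.5), whose ranges overlapped. *Ptgs1* (21.0 ± 1.36), *Ptges* (8.41 ± 0.909) and *Ptger4* (6.28 ± 0.714) came next, each separated from its neighbours in all libraries. *Ptges2* (2.36 ± 0.317) and *Hpgd* (2.10 ± 0.242) overlapped, and *Ptger1* (0.150 ± 0.068) and *Ptger2* (0.148 ± 0.0497) were near the limit of detection and overlapped too. In CRE libraries the order of the leading members differed, with *Ptgs2* (101.3 ± 20 FPKM) ahead of *Ptgis* (77.8 ± 4.76 FPKM), although 1 *Ptgs2* library lay within the *Ptgis* range. The positions from *Ptgs1* downward were the same in both groups.

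**Figure D1:**
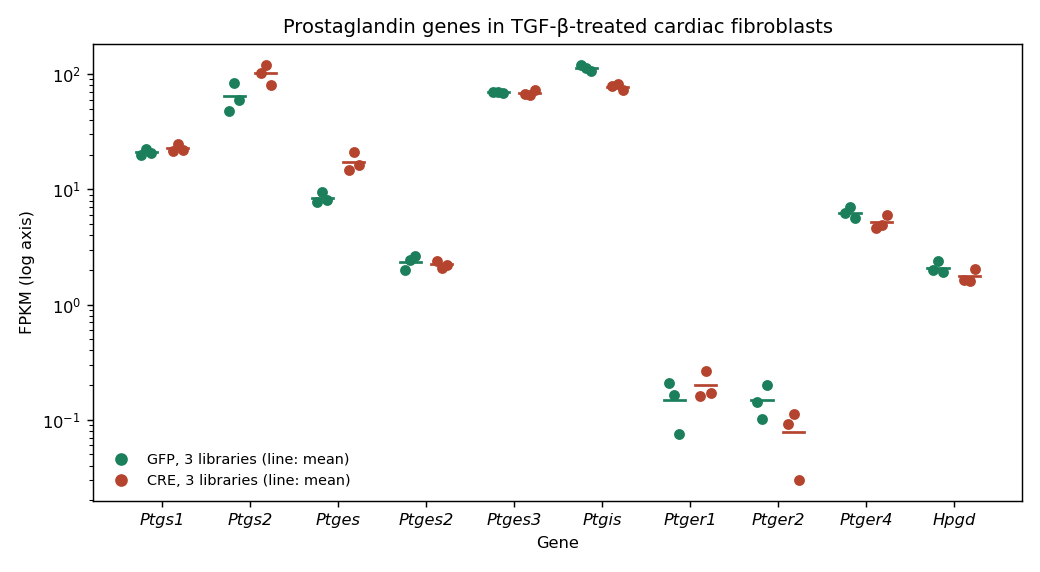
FPKM of the 10 prostaglandin genes (log axis) in each GFP and CRE library, with a line at each group mean. *Ptgis* fell from a mean of 112.6 to 77.8 FPKM and *Ptges* rose from 8.41 to 17.3 FPKM, while *Ptger1* and *Ptger2* lie more than an order of magnitude below *Ptger4*.

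Cyclooxygenases carry out the first committed step. *Ptgs2* (ENSMUSG00000032487, protein-coding, chromosome 1, positions 150100031 to 150108227, plus strand, GRCm38) had normalized levels of 226.6, 397.0 and 282.3 CPM in GFP replicates 1, 2 and 3 and of 430.8, 505.7 and 339.6 CPM in CRE replicates 1, 2 and 3. The CRE mean was higher, but the lowest CRE library (replicate 3) lay below the highest GFP library (replicate 2), so the groups overlapped. The log2 fold change was 0.49 (SE 0.19, 95% interval 0.08 to 0.91), a mean of 302.0 ± 86.8 CPM against 425.4 ± 83.2 CPM (SD, n = 3), and the edgeR adjusted p was 0.0464. The permutation test over libraries (exact, two-sided) gave p = 0.2, where 0.1 is the smallest value 3 against 3 libraries allow. The call did not hold in DESeq2 (adjusted p of 0.161) or without GFP replicate 1 (0.32 on the log2 scale, adjusted p of 0.0939). It was also lost without GFP replicate 3 (0.132), CRE replicate 1 (0.103) or CRE replicate 2 (0.170). The edgeR adjusted p was smaller with the replicate number as a block (0.00405) and without GFP replicate 2 (0.00272). The log2 fold change ranged from 0.32 to 0.74 over all alternatives.

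*Ptgs2* was one of the most variable genes of its level. Its SD between libraries of a group was 0.35 on the log2 scale, and 12 (1.32%) of 911 tested genes within 2-fold of its mean level had a larger one, where the median was 0.06. *Ptges* was variable as well (SD 0.22, exceeded by 2.21% of genes of similar level). Replicate 2 had the highest *Ptgs2* and the highest *Ptges* level in both groups.

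*Ptgs1* (ENSMUSG00000047250, chromosome 2, positions 36230426 to 36252272, plus strand) stood at 60.6, 68.4 and 62.3 CPM in the GFP libraries and at 58.9, 66.5 and 60.0 CPM in the CRE libraries. The groups overlapped over most of their ranges. The log2 fold change was -0.05 (95% interval -0.19 to 0.10, edgeR adjusted p of 0.586), and its sign turned with the scaling of the libraries. *Ptgs2* made up 70.7%, 78.9% and 74.5% of the summed FPKM of both cyclooxygenases under GFP and 82.6%, 83.0% and 78.5% under CRE. This share does not depend on library scaling. Its mean was 74.7% ± 4.12 against 81.4% ± 2.52 (SD, n = 3), the groups overlapped, and the exact permutation p was 0.2.

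PGE2 synthases convert PGH2 to PGE2. *Ptges* codes for the inducible microsomal enzyme, which is known to work together with the product of *Ptgs2*. The gene (ENSMUSG00000050737, chromosome 2, positions 30889471 to 30929863, minus strand) had 29.8, 36.4 and 31.1 CPM in the GFP libraries and 50.9, 72.9 and 55.5 CPM in the CRE libraries. Every CRE library lay above every GFP library. The mean rose 1.84-fold, from 32.4 ± 3.49 to 59.8 ± 11.6 CPM (SD, n = 3). On the log2 scale this was 0.88 (SE 0.13), at an edgeR adjusted p of 0.000236 and an exact permutation p of 0.1. Among tested genes, 89.8% had a smaller absolute log2 fold change.

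The other genes of this step did not rise. *Ptges3* (ENSMUSG00000071072, chromosome 10, positions 128058954 to 128077272, plus strand) codes for p23, a protein better known as a co-chaperone of HSP90. Its levels were 147.7, 148.0 and 143.2 CPM in the GFP libraries and 128.3, 125.0 and 136.8 CPM in the CRE libraries, which did not overlap. The fall was small, with a log2 fold change of -0.17 (SE 0.05, edgeR adjusted p of 0.0128). It was at -0.01 with library size alone (adjusted p of 0.902) and on FPKM values, and the adjusted p was 0.0626 without CRE replicate 2. A processed pseudogene of *Ptges3* lies on chromosome 6 (positions 85843980 to 85844459), and how reads shared with it were assigned is not given in the sources used here. *Ptges2*, which codes for another membrane-associated PGE2 synthase (ENSMUSG00000026820, chromosome 2, positions 32395896 to 32405772, plus strand), stood between 10.6 and 13.9 CPM in GFP and between 9.80 and 11.3 CPM in CRE libraries. It did not pass the threshold (log2 fold change of -0.25, 95% interval -0.51 to 0.01, edgeR adjusted p of 0.0997), except without GFP replicate 1 (-0.35, adjusted p of 0.0194). It was at -0.16 (0.326) without GFP replicate 3 and at -0.09 (0.545) with library size alone.

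*Ptges* therefore took a larger share of the summed FPKM of the 3 synthase genes in CRE libraries. The share was 9.70%, 11.5% and 10.2% under GFP and 17.3%, 23.7% and 17.8% under CRE. The lowest CRE value lay above the highest GFP value, with means of 10.5% ± 0.925 and 19.6% ± 3.54 (SD, n = 3) and an exact permutation p of 0.1, the smallest possible. *Ptges3* supplied most of the rest in both groups.

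Prostacyclin synthase, the product of *Ptgis*, draws on the same PGH2. *Ptgis* (ENSMUSG00000017969, chromosome 2, positions 167191805 to 167240604, minus strand) had 242.4, 230.5 and 221.2 CPM in the GFP libraries and 144.8, 151.7 and 135.2 CPM in the CRE libraries. The groups lay far apart and each was narrow. The mean fell from 231.4 ± 10.6 to 143.9 ± 8.3 CPM (SD, n = 3), to 62.2% of its level in GFP libraries. The fitted log2 value was -0.68 (SE 0.06), at an edgeR adjusted p of 5.91e-06. Endothelial cells, whose markers fell in the same libraries (see the summed levels above), are also known to express *Ptgis* strongly, and their part in this change was not tested.

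*Ptgis* and *Ptges*, which use the same substrate, thus moved in opposite directions. The ratio of *Ptgis* FPKM to *Ptges* FPKM was 15.4, 11.9 and 13.2 under GFP and 5.34, 3.87 and 4.52 under CRE. No CRE library came near a GFP library. The means were 13.5 ± 1.75 and 4.58 ± 0.733 (SD, n = 3), with an exact permutation p of 0.1. This ratio was chosen after the values of both genes had been seen.

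**Figure D2:**
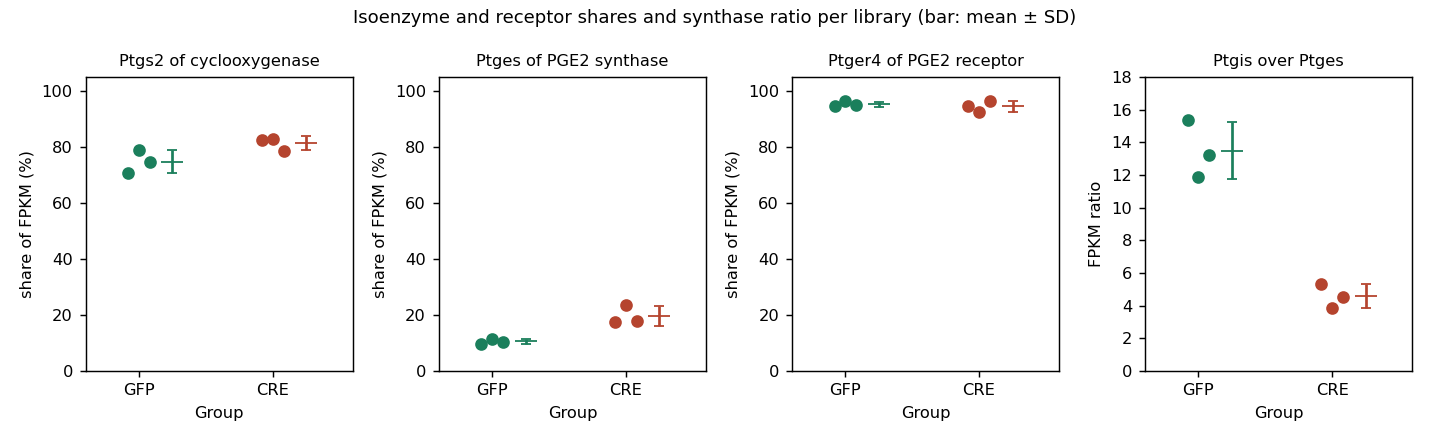
Share of summed FPKM taken by *Ptgs2* among cyclooxygenases, by *Ptges* among PGE2 synthases and by *Ptger4* among PGE2 receptors, and the ratio of *Ptgis* to *Ptges* FPKM, in each library, with mean ± SD beside the points. The *Ptges* share (10.5% against 19.6%) and the ratio (13.5 against 4.58) separate GFP from CRE, whereas the groups overlap for *Ptgs2* and *Ptger4*.

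Receptors for PGE2 were represented almost wholly by *Ptger4*, which codes for EP4, a receptor coupled to cyclic AMP. Its levels were 21.8, 24.3 and 19.4 CPM in the GFP libraries and 14.5, 15.2 and 18.6 CPM in the CRE libraries. The groups did not overlap, but CRE replicate 3 came close to GFP replicate 3. *Ptger4* (ENSMUSG00000039942, chromosome 15, positions 5206661 to 5244187, minus strand) fell to 73.9% of the GFP mean, from 21.8 ± 2.46 to 16.1 ± 2.21 CPM (SD, n = 3). The fitted log2 value was -0.43 (SE 0.11), at an edgeR adjusted p of 0.00933. The value was -0.27 (adjusted p of 0.0637) with library size alone and -0.24 (0.104) on log2(FPKM + 1), neither past the threshold. A pseudogene annotated on the opposite strand covers 15.3% of its exonic bases, and whether counting used the strand is not stated.

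*Ptger2*, which codes for EP2, also coupled to cyclic AMP, had 9, 7 and 15 raw counts under GFP and 6, 7 and 2 under CRE. These raw counts met at 7 and were too few for the main test, while the normalized levels did not overlap (0.395 to 0.779 CPM against 0.106 to 0.388 CPM, exact permutation p of 0.1). Without the filter on low counts the log2 fold change was -1.09 (95% interval -2.30 to 0.11, edgeR adjusted p of 0.149), so a difference was not detectable at this depth. *Ptger1*, which codes for the calcium-coupled EP1, had 17, 14 and 7 raw counts in GFP and 13, 21 and 14 in CRE libraries, again overlapping. Its log2 fold change was 0.26 (95% interval -0.66 to 1.18, edgeR adjusted p of 0.634). *Ptger3*, the remaining PGE2 receptor gene, had at most 1 count in any library. *Ptger4* took between 94.7% and 96.4% of the FPKM of the 4 receptor genes in GFP and between 92.4% and 96.3% in CRE libraries (exact permutation p of 0.6).

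*Hpgd* codes for hydroxyprostaglandin dehydrogenase, which starts the inactivation of PGE2. It was a minor transcript (ENSMUSG00000031613, chromosome 8, positions 56294585 to 56321043, plus strand), with 57, 75 and 66 raw counts under GFP and 49, 46 and 61 under CRE. On the normalized scale the groups did not overlap, at 3.43 to 4.23 CPM against 2.55 to 3.22 CPM. The log2 fold change of -0.41 (95% interval -0.81 to -0.01) did not pass after adjustment (edgeR unadjusted p of 0.0447, adjusted p of 0.0799, exact permutation p of 0.1), and it passed in none of the 16 other fits, where it ranged from -0.52 to -0.17.

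The rest of the prostanoid pathway was followed with a list of 35 genes, of which 34 were in the table and 18 were tested. Of these, 3 rose, 8 fell and 7 did not pass, with a median log2 fold change of -0.09, where over all tested genes 25.5% rose and 25.7% fell. With library size alone 7 rose and 6 fell, where of all 12862 tested genes 5529 rose and 2083 fell. Among receptors for other prostanoids, all 3 that could be tested fell: *Ptgir*, the prostacyclin receptor, *Tbxa2r*, the thromboxane receptor, and *Ptgfr*, the PGF2α receptor.

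*Ptgir* had 111, 128 and 140 raw counts under GFP and 35, 52 and 49 under CRE, which did not overlap. Its log2 fold change was -1.54 (SE 0.17, edgeR adjusted p of 3.81e-05). Both the synthase for prostacyclin and its receptor were thus lower in CRE libraries. *Tbxa2r* had 106, 104 and 137 raw counts against 55, 51 and 48, a log2 fold change of -1.23 (SE 0.15, edgeR adjusted p of 7.78e-05). *Ptgfr* had 32, 50 and 39 against 18, 4 and 17, a log2 fold change of -1.69 (SE 0.40, edgeR adjusted p of 0.0049) that did not pass on log2(FPKM + 1) (adjusted p of 0.0759). *Ptgir* and *Tbxa2r* are also known from vascular and blood cells. Endothelial markers fell in the same libraries, as did 6 of 10 smooth muscle and pericyte markers, while *Cspg4* rose (log2 fold change of 1.03, edgeR adjusted p of 0.00378). The summed level of these 10 lay between 1080 and 1240 CPM in GFP and between 913 and 930 CPM in CRE libraries, and without *Pdgfrb*, which fibroblasts express too, between 158 and 180 CPM and between 129 and 149 CPM. The part of these cell types in the changes was not tested.

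Genes that release arachidonic acid numbered 15 in the data, of which 6 were tested, 4 fell and none rose, against 25.7% lower over all tested genes. *Pla2g4a*, the cytosolic phospholipase that supplies most arachidonic acid for prostaglandin synthesis, fell from 98.4 ± 6.15 to 77.2 ± 3.64 CPM (SD, n = 3), that is -0.35 on the log2 scale (SE 0.06, edgeR adjusted p of 0.000578), and -0.19 with library size alone (adjusted p of 0.0156). *Pla2g2e*, a secreted phospholipase of low abundance, fell to 29.0% of its GFP mean of 2.30 ± 0.43 CPM (SD, n = 3), and *Mgll*, which releases arachidonic acid from monoacylglycerol, to 58.8% of 8.10 ± 1.29 CPM (SD, n = 3), with edgeR adjusted p of 0.000453 and 0.00327. *Pla2g4c* was called at 9 to 33 raw counts (adjusted p of 0.0358), but not in 8 of 15 other fits, DESeq2 among them (0.076).

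Other terminal enzymes and those of breakdown included all 3 genes that rose. *Akr1b3*, an aldose reductase that can also make PGF2α, rose from 224.9 ± 29.9 to 412.7 ± 102 CPM (SD, n = 3), that is 0.87 on the log2 scale (SE 0.15, edgeR adjusted p of 0.000796), and replicate 2 was highest in both groups, as for *Ptgs2* and *Ptges*. *Ptgr1* and *Zadh2* (now named *Ptgr3*), reductases that act on prostaglandins already oxidised, rose by 0.60 (SE 0.07) and 0.43 (SE 0.05) on the log2 scale, with edgeR adjusted p of 8.94e-05 and 9.69e-05. The related *Ptgr2* did not pass (-0.02, 95% interval -0.15 to 0.11), but on log2(FPKM + 1) it was at 0.16 (limma adjusted p of 0.0301). By mean FPKM over all libraries it was the most abundant of the transport and breakdown genes, although its range overlapped that of *Zadh2* in CRE libraries. *Ptgfrn*, which codes for a membrane protein named for inhibiting the PGF2α receptor, had a small fall of -0.16 (SE 0.04, edgeR adjusted p of 0.00679) that was at 0.00 with library size alone (adjusted p of 0.985). The synthases *Ptgds*, *Hpgds* and *Tbxas1* had at most 4 counts in any library.

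**Figure D3:**
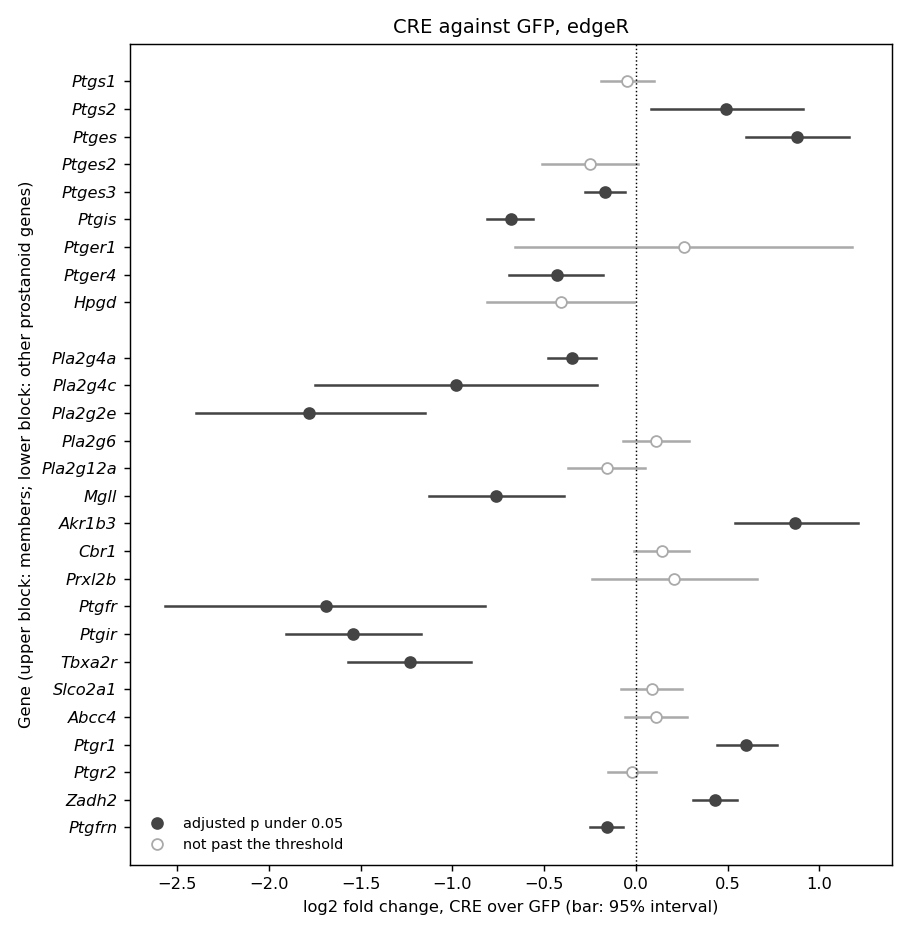
Log2 fold change of CRE over GFP with its 95% interval for the 9 tested prostaglandin genes (upper block) and 18 other tested prostanoid genes (lower block), filled where the edgeR adjusted p was under 0.05. *Ptges* (0.88) and *Akr1b3* (0.87) lie furthest to the right, and *Pla2g2e* (-1.78), *Ptgfr* (-1.69) and *Ptgir* (-1.54) furthest to the left.

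**Figure D4:**
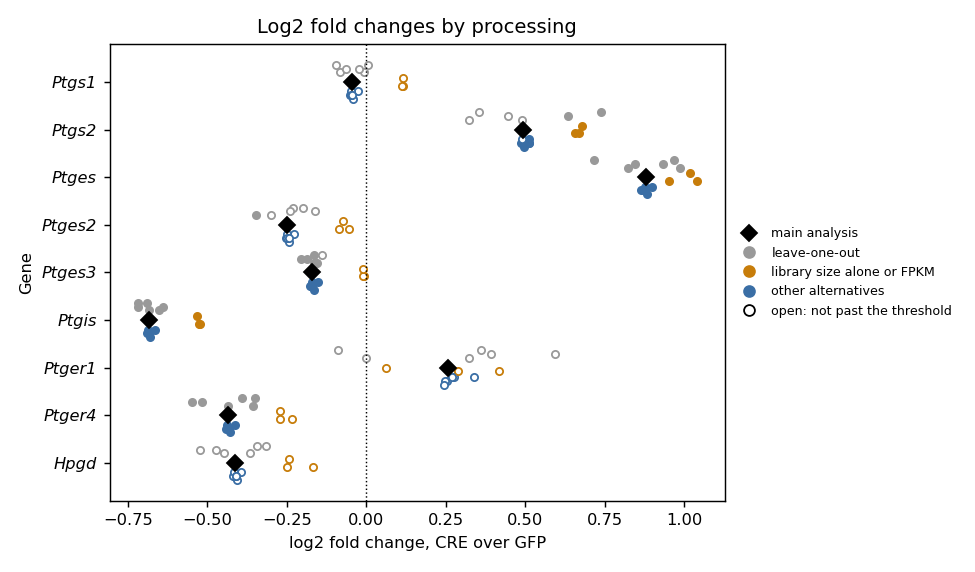
Log2 fold change of the 9 tested prostaglandin genes in the main analysis (diamonds) and under each alternative (circles, open where the threshold was not passed). *Ptges* (0.72 to 1.04) and *Ptgis* (-0.72 to -0.52) stay filled throughout, whereas *Ptgs2* (0.32 to 0.74) has open circles and *Ptges3* moves to -0.01 with library size alone or FPKM.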

How the data were processed

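Per the study's methods, reads were trimmed with Trimmomatic, aligned to GRCm38 with HISAT2 and counted per gene with HTSeq-count. Versions and the strand setting are not given in the sources used here, and the labels and methods name different library kits. The authors deposited raw counts and Cufflinks FPKM for each library. Their group means, log2 fold change, p-value and false discovery rate, also deposited in the table, were not used. Groups and replicate numbers came from the sample titles.

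Counts were tested in R 4.3.3 with edgeR 4.0.16 (filterByExpr with a minimum count of 10 and total of 15, TMM scaling, quasi-likelihood test, two-sided, Benjamini-Hochberg over all tested genes) in place of DESeq, which the study used. SE is the absolute log2 fold change over the square root of F. A count of 0 allows up to 0.156 to 0.187 CPM (3 counts per library, counting error only). Shares and ratios used FPKM. DESeq2 1.42.0 and limma 3.58.1 served as alternatives. The edgeR steps were tested on simulated counts. Coordinates are from GENCODE M21, plots from matplotlib 3.10.9.

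The genes named are all members, *Tet3* and, from the prostanoid, leukotriene and cyclic AMP lists, those past the threshold and the most abundant of each role. Marker lists are given by counts and summed levels, those without *Eng* or *Pdgfrb* chosen after seeing the data. The members and lists were chosen with earlier results of these data known. Other genes (*Ptger3*, *Ptgds*, *Hpgds*, *Tbxas1*, *Col1a1*, *Col1a2*, *Col3a1*, *Postn*, *Thy1*, *Eng*, *Cspg4*, *Pdgfrb*, *Kit*, *Cma1*, *Myh6*, *Nppb*, *Alox5ap*, *Nr4a3*) were named after their values were seen.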

Additional observations from a re-analysis of the deposited data

How the results depend on the processing

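*Ptges* and *Ptgis* passed the threshold under all 16 alternatives, and *Tet3* stayed lower in each. The number of members past the threshold was 5 in the main analysis and 3 with library size alone, on log2(FPKM + 1) and on log2(FPKM + 0.1) (2 higher and 1 lower each time). Of all 12862 tested genes, 6583, 7612, 6892 and 6898 passed in these settings, in that order. At the threshold of the study (unadjusted p under 0.05, fold over 1.5 or under 0.66) 2 members passed, against 17.8% of all tested genes. Tested against a fold of 1.2, again 2 members passed, against 3231 of 12862 genes. When 1 library was left out, between 3 and 5 members and between 5641 and 6517 of all genes passed. Without CRE replicate 2 it was 3 members, and 5690 of 13012 genes. Over all tested genes, 49.8% of calls were higher in the main analysis, 72.6% with library size alone and 72.2% on log2(FPKM + 1). For library size alone this follows from the scaling. The median log2 fold change over all tested genes was 0.17 there and 0.17 on log2(FPKM + 0.1). For each member, counts over FPKM and total counts gave nearly the same length in both groups (CRE over GFP between 0.99 and 1.007). FPKM of the members thus carried scaling by library size alone. For the other genes this was not tested. None of these settings made a call of *Ptgs1*, which stood at 0.12 with library size alone, 0.11 on log2(FPKM + 1), 0.12 on log2(FPKM + 0.1) and between -0.10 and 0.0056 without 1 library. Neither did they for *Ptger1*, between -0.089 and 0.59 without 1 library. In the same 3 settings *Lta4h* was at 0.055, 0.0545 and 0.056, and *Ptgr2* at 0.14, 0.16 and 0.17, the last pair past the threshold (adjusted p of 0.0301 and 0.0299). Without 1 library, *Ptgr2* lay between -0.073 and 0.013. The difference in *Ptger4* share lay between -1.72 and 0.257 percentage points without 1 library.

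Deviations of libraries with the same replicate number correlated at 0.028, 0.207 and -0.039 over all tested genes. Those of libraries with different numbers correlated at -0.13 to 0.106. With 3 matched pairs only, these values cannot settle whether the numbers pair the samples. With the replicate number as a block, 5 members passed (2 higher, 3 lower), as did 6633 of 12862 tested genes. The edgeR adjusted p was then 0.00405 for *Ptgs2* and 9.45e-06 for *Ptges*. On log2(FPKM + 1), where the pseudocount compresses low levels, *Ptgir* stood at -0.88, *Tbxa2r* at -0.76, *Pla2g2e* at -0.92, *Mgll* at -0.32, *Pde4d* at -0.53, *Nr4a2* at 0.61 and *Alox5* at 0.57, all still past the threshold. Depth limits *Ptger1* and *Ptger2*, at 2 to 21 counts per library.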

Other observations

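The lipoxygenase arm, which turns arachidonic acid into leukotrienes, was mostly silent, with 2 of 10 listed genes tested. *Alox5*, which codes for the enzyme that starts leukotriene synthesis, had 3, 0 and 3 raw counts under GFP and 27, 36 and 19 under CRE, which did not overlap. Summed over libraries, 82 counts stood against 6, a ratio of 13.0 after scaling by normalized library size (95% interval 5.74 to 36.6, counting error only), and edgeR gave an adjusted p of 0.000479. Its partner *Alox5ap* had at most 5 counts in any library. *Lta4h*, at 72.2 ± 4.39 and 67.1 ± 2.31 CPM (SD, n = 3), did not pass (edgeR adjusted p of 0.136), except when GFP replicate 2 was left out (-0.16 on the log2 scale, adjusted p of 0.0342).

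Genes known to respond to cyclic AMP, the messenger of EP2 and EP4, did not move one way. Of 8 tested, 2 rose, 2 fell and 4 did not pass, near the 51.2% called over all tested genes. The phosphodiesterase genes *Pde4b* and *Pde4d*, whose products break down cyclic AMP, fell by 0.77 (SE 0.14) and 0.89 (SE 0.19) on the log2 scale, with edgeR adjusted p of 0.000954 and 0.00273. The nuclear receptor genes *Nr4a1* and *Nr4a2* rose by 1.23 (SE 0.34) and 0.95 (SE 0.26), with edgeR adjusted p of 0.0117 and 0.0121, and neither passed without GFP replicate 3 (0.0534 and 0.0538). Without GFP replicate 2 the value of *Nr4a1* was 1.91. *Nr4a3* had 8, 102 and 30 raw counts under GFP and 106, 141 and 90 under CRE, and did not pass (edgeR adjusted p of 0.0824). Like *Ptgs2*, all of *Nr4a1*, *Nr4a2* and *Nr4a3* were highest in replicate 2 of both groups.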
